A study of Mus musculus with 16 samples.

Results

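Transcripts of 10 genes of the major histocompatibility complex (MHC) system were followed in whole aorta from ApoE-/- mice, a common atherosclerosis model without apolipoprotein E. The 10 were taken by gene symbol from 55267 gene names in the deposited table. They were the class II genes H2-Aa, H2-Ab1, H2-Eb1, Cd74, Ciita, H2-DMa and H2-DMb1, and the class I genes H2-K1, H2-D1 and B2m. Where several loci carried a symbol, the locus with the highest mean FPKM (a level per transcript length and per library size) stood for the gene. All 10 passed the expression filter and entered the tests.

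Feeding began at 8 weeks of age with either Western diet or normal purified diet. Tissue was collected 6 weeks later (age 14 weeks) or 22 weeks later (age 30 weeks). Each of the 4 groups had 4 libraries: normal diet at 6 weeks, Western diet at 6 weeks, normal diet at 22 weeks and Western diet at 22 weeks. All 16 libraries were of the ApoE-/- genotype (the genotype field reads "APOE knockdown"), and no wild-type group was analysed here. Nothing in the labels says whether the libraries of a group came from separate mice, so the p-values measure the spread between these libraries only. The library codes in the labels begin differently at 6 and at 22 weeks, so time on diet, the age of the mice and that code series cannot be told apart. Total estimated counts per library ran from 44906748 to 80907948, and 24091 loci were tested. The tissue label matched its defining markers: all 6 smooth muscle markers were detected in every group, and their summed level was 4291 to 12873 CPM (counts scaled to library size and by TMM, the trimmed mean of M-values).

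Class II molecules are pairs of an alpha and a beta chain that show peptides from engulfed material to CD4+ T cells. They are made mainly by dendritic cells, B cells and activated macrophages. Their assembly depends on the invariant chain Cd74 and on the peptide-exchange factor H2-DM, and their transcription on the coactivator Ciita. Class I molecules are heavy chains, such as H2-K1 and H2-D1, held together with the small subunit B2m, and they show peptides from inside the cell to CD8+ T cells on nearly all nucleated cells. In plaque-bearing arteries, class II transcripts are often used as a sign of antigen-presenting cells.

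Class II and class I genes are read from promoters with known sequence boxes. Stretches are shown here because the members differ in which of the searched letters they hold. RefSeq promoter entries on GRCm38.p6, each of 300 bases from 250 before to 50 after a start site, existed for 7 of the 10 members. H2-Ab1, Cd74 and Ciita had none. The letters searched were chosen with the sequences in view, and both strands were searched. In class II promoters, a CCAAT-type Y box was searched as GATTGG and an X2 box as TGACGTCA. The X1 box was searched in the form capitalised upstream of the Y box in H2-Eb1 and H2-DMb1, with any base at the third, the fourth and the seventh letter. A kappa B site was searched exactly as capitalised in H2-K1 and H2-D1, and an interferon-stimulated element as GAANNGAAA. A match describes these letters and does not show that a factor binds there. A missing match does not show that a box is absent, since other forms of the boxes were not searched. Capitals mark the matches in the stretches below, which are written 5′ to 3′ on the strand of the gene. No base past the start site is shown.
H2-Aa, chr17:34287842-34287922, minus strand: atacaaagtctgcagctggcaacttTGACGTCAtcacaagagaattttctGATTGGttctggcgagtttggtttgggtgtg
H2-Eb1, chr17:34305750-34305862, plus strand: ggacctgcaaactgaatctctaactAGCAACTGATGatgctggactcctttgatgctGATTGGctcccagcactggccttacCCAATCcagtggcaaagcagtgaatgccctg
H2-DMb1, chr17:34153071-34153159, plus strand: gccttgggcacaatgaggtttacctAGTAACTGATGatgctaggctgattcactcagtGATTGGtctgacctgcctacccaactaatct
H2-K1, chr17:34000334-34000483, minus strand, at the second listed start site: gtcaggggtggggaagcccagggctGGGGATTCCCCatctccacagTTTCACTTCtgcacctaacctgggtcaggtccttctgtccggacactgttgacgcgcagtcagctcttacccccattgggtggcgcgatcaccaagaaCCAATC
H2-D1, chr17:35262898-35263071, plus strand: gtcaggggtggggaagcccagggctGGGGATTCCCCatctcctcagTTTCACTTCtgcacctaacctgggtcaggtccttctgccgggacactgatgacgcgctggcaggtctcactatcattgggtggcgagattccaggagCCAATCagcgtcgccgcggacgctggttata
B2m, chr2:122147608-122147663, plus strand: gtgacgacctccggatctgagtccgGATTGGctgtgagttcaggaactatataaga

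The Y box letters occurred in all 6 stretches. Each stretch was cut around its matches, and in B2m the Y box letters were the only match. The H2-K1 stretch is from the second listed start site. At the first, its match to the Y box letters, on the reverse strand, lies past the start site. The count of 6 is thus largely set by the choice of stretches and cannot be compared with a share of promoters. Of 27025 whole RefSeq promoter entries, 16.6% held the Y box letters. H2-Eb1 held the Y box letters on both strands. The X1 letters stood upstream of the Y box in H2-Eb1 and H2-DMb1, and were found in 0.999% of all promoters. H2-Aa held the X2 letters, found in 1.88%. The heavy chains H2-K1 and H2-D1 held both the kappa B letters and, on the reverse strand, the interferon element. The kappa B letters were present in 6 promoters of the 27025 (0.0222%), those of Aipl1, Atg16l2, H2-D1, H2-K1, H2-Q6 and Pdzd2, and the interferon element in 7.56%. All letters were chosen with these sequences in view, and the X1 and kappa B letters follow them. Matches in these members were thus set by that choice, and the shares of all promoters are no measure of enrichment. From the first base shown to the end of the interferon element, H2-K1 and H2-D1 were identical at 54 of 55 bases. B2m held neither of these letters in its window. H2-DMa held the Y box letters at the second listed start site alone, and no stretch of it is shown.

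Levels of different genes were compared on deposited FPKM, which takes length into account. At 6 weeks on normal diet B2m had the highest level, 268 ± 62.4 FPKM (mean ± SD, n = 4), followed by H2-D1 at 95.3 ± 14.3, Cd74 at 59.2 ± 39.9 and H2-K1 at 34.7 ± 7.89. The class II chains H2-Aa, H2-Eb1 and H2-Ab1 lay at 12.1 to 14.7 FPKM and their libraries overlapped. H2-DMa, H2-DMb1 and Ciita lay at 1.02 to 1.82 FPKM and overlapped one another. At 22 weeks the order at the top was exchanged. H2-D1 led with 206 ± 37.2 FPKM on normal diet and 229 ± 17.1 on Western diet, and B2m followed with 87.5 ± 25.8 and 112 ± 20, with no overlap between the libraries of both genes in either group. H2-K1 and Cd74 overlapped at that time on both diets, and B2m overlapped the gene next below it.

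The levels below are TMM-scaled CPM, which serves to compare a gene between libraries, and each row of 4 values runs from replicate 1 to replicate 4. H2-Aa (chr17:34282744-34287823, GRCm38) codes for the alpha chain of the class II molecule I-A. Its CPM was 47, 128, 45.1 and 44.8 on normal diet at 6 weeks and 73.5, 46, 53 and 60.6 on Western diet at 6 weeks. At 22 weeks it was 47.7, 39.7, 80.1 and 148 on normal diet and 177, 105, 95.4 and 107 on Western diet. A single library stood high in each normal-diet group, replicate 2 at 6 weeks and replicate 4 at 22 weeks, and the diet groups overlapped at both times. H2-Ab1 (chr17:34257689-34269419), the beta chain of I-A, read 40.1, 109, 39.8 and 37 CPM on normal diet and 68.3, 42.7, 46.2 and 51.4 on Western diet at 6 weeks. At 22 weeks it read 56.6, 52.8, 93.9 and 168 CPM on normal diet and 185, 105, 127 and 107 on Western diet. The same libraries were highest in each group for both I-A chains.

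H2-Eb1 (chr17:34305867-34316674), the beta chain of I-E, had 29.6, 54.3, 24 and 20.3 CPM on normal diet and 35.6, 26, 30.2 and 31.9 on Western diet at 6 weeks. It had 34.5, 33.4, 59.8 and 99.8 CPM on normal diet and 118, 73.8, 80.8 and 75.1 on Western diet at 22 weeks. Both diet pairs overlapped, and the Western-diet libraries of 22 weeks all lay above those of 6 weeks. Cd74 codes for the invariant chain, which blocks the peptide groove until the molecule reaches the endosome. Its locus also carries the microRNA gene Mir5107. Cd74 measured 88.5, 243, 88.9 and 72 CPM on normal diet and 160, 90.9, 127 and 95.4 on Western diet at 6 weeks. It measured 76.4, 67.6, 133 and 297 CPM on normal diet and 351, 197, 200 and 188 on Western diet at 22 weeks. Normal-diet replicate 4 alone lay above the lowest 3 of the 4 Western-diet libraries at 22 weeks.

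Ciita (chr16:10480059-10528418), the coactivator that switches on class II transcription, had 5 loci in the table. The locus used gave 14.3, 38, 13.4 and 10.5 CPM on normal diet and 23.7, 13.3, 20.1 and 8.59 on Western diet at 6 weeks. At 22 weeks it gave 20.6, 22.2, 38.1 and 117 CPM on normal diet and 47.6, 33, 34.4 and 36.3 on Western diet. The value of 117 was the highest of the 16, with 38.1 next in its group. H2-DMa (chr17:34119541-34139101) and H2-DMb1 form the H2-DM dimer, which exchanges the Cd74 remnant for peptide. H2-DMa lay at 4.76 to 12.7 and 6.02 to 9.17 CPM at 6 weeks and at 9.38 to 20.4 and 12.6 to 21 at 22 weeks, on normal and Western diet in turn. The locus of H2-DMb1 (chr17:34143307-34160998) also carries H2-DMb2, and 22.7% of the 50-base words of the H2-DMb1 transcripts occur in H2-DMb2, so its values hold both genes. They were 5.78, 24.9, 6.25 and 7.77 CPM on normal diet and 11, 4.43, 9.42 and 6.33 on Western diet at 6 weeks. At 22 weeks they were 12.2, 8.44, 17.5 and 56.4 CPM on normal diet and 17.6, 13.5, 25.2 and 11 on Western diet. Normal-diet replicate 4 was again the highest library.

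H2-K1 (chr17:33996017-34000347) and H2-D1 (chr17:35262730-35267499) are the classical class I heavy chains. H2-K1 had 138, 147, 92.1 and 108 CPM on normal diet and 157, 151, 116 and 170 on Western diet at 6 weeks. Values after 22 weeks were 221, 271, 339 and 425 CPM on normal diet and 310, 305, 321 and 281 on Western diet. All 8 libraries of 22 weeks lay above all 8 of 6 weeks. H2-D1 had 275, 351, 277 and 269 CPM on normal diet and 317, 281, 343 and 294 on Western diet at 6 weeks. At 22 weeks H2-D1 had 642, 607, 833 and 845 CPM on normal diet and 850, 803, 824 and 734 on Western diet. Here too the times did not overlap. Of the 50-base words of their annotated transcripts, 9.63% for H2-K1 and 12.8% for H2-D1 also occur in other genes, the largest shares in H2-Q10 and H2-Q1, so reads may have been divided among these heavy chains.

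B2m (chr2:122147686-122153083) codes for beta-2 microglobulin, the light subunit of every classical class I molecule. It had 274, 356, 225 and 241 CPM on normal diet and 271, 243, 262 and 283 on Western diet at 6 weeks. After 22 weeks it had 78, 85.3, 109 and 142 CPM on normal diet and 157, 134, 114 and 116 on Western diet. Its libraries of 22 weeks all lay below its libraries of 6 weeks, which is the reverse of the heavy chains.

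**Figure D1:**
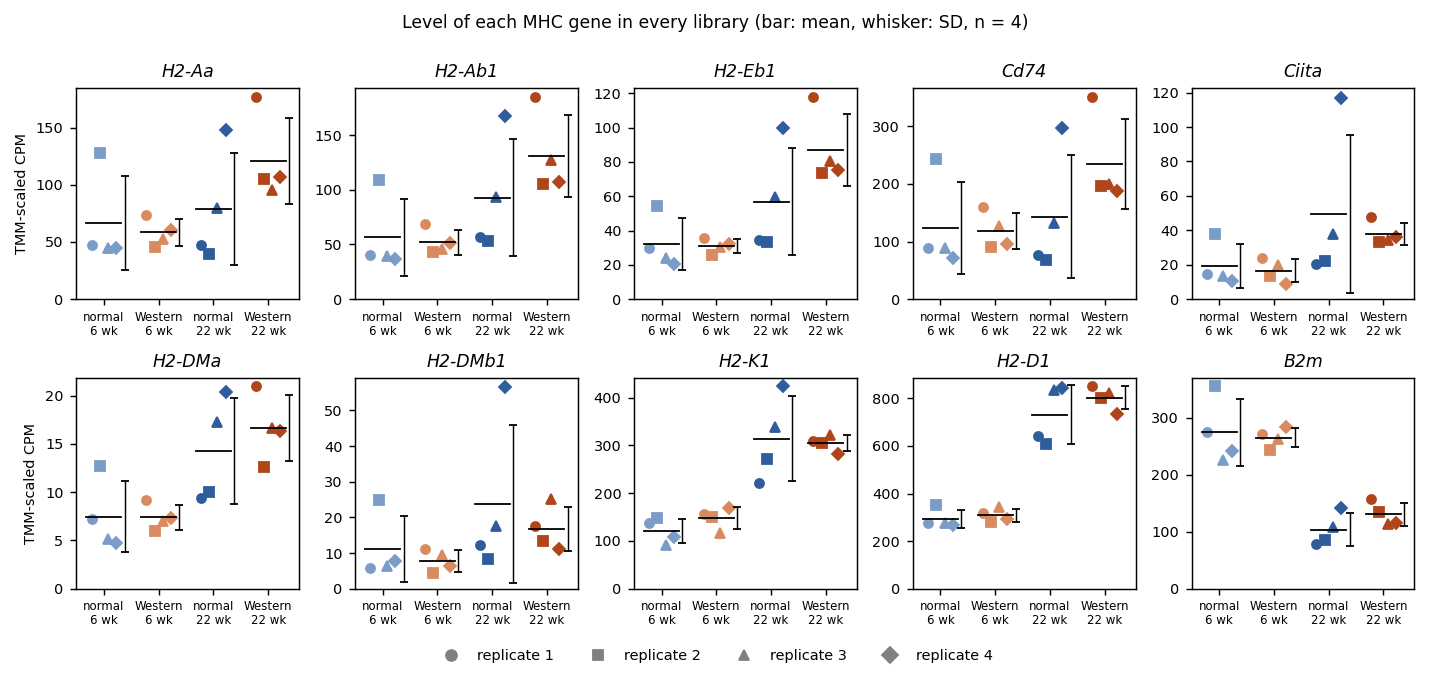
Level of each of the 10 genes in TMM-scaled CPM (vertical axes, starting at 0) in the 4 groups, with 1 point per library, a bar at the mean and a whisker of 1 SD (n = 4). Replicate 2 of the normal diet at 6 weeks and replicate 4 of the normal diet at 22 weeks stand above the rest of their groups for most class II genes, and B2m is lower at 22 weeks in all libraries while H2-K1 and H2-D1 are higher.

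The first comparison was Western against normal diet at 6 weeks, which asks whether an early Western diet changed the aorta. No member passed edgeR's quasi-likelihood test after Benjamini-Hochberg adjustment over all loci (adjusted p under 0.05), and 0 had an unadjusted p under 0.05. Of all loci tested, 0.282% passed, 68 of 24091. DESeq2 called 458 loci and limma on FPKM 90, and neither called a member. The adjusted p of the members was 0.657 to 0.995. No member separated the diets without overlap, against 7.39% of all loci. The 7 class II genes had log2 fold changes of -0.52 to -0.02 with a median of -0.11, but for 5 of them the sign turned in limma on log2(FPKM + 0.5), which changes the unit and the test together. The median of all loci was 0.00. H2-K1 had the largest value of the class I genes, 0.29 ± 0.19 (log2 fold change ± SE).

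Without normal-diet replicate 2 all 10 values at 6 weeks were positive. Cd74 then moved from -0.06 to 0.51 and H2-Ab1 from -0.11 to 0.42 on the log2 scale, and still no member passed. That library was also the highest of its group in B cell markers, with a summed level of 188 CPM over 10 genes against 11.1 to 25 in the other 3 libraries of the group. All 10 markers were detected in it.

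The second comparison was Western against normal diet at 22 weeks, when plaque is usually more advanced in this model. Again 0 members passed and 0 had an unadjusted p under 0.05, against 0.228% of all loci passing, 55 of 24091. DESeq2 called 829 loci, none of them a member. The groups overlapped for all 10 members, while 7.51% of all loci showed no overlap. The 4 genes of the class II chains and the invariant chain had the highest values: Cd74 0.70 ± 0.46, H2-Aa 0.62 ± 0.41, H2-Eb1 0.61 ± 0.34 and H2-Ab1 0.49 ± 0.39 (log2 fold change ± SE). The adjusted p was 0.442 for H2-Eb1 and 0.525 to 0.625 for the other 3 in edgeR's quasi-likelihood test. Ciita, at -0.39 ± 0.52, and H2-DMb1, at -0.49 ± 0.57, had negative values. Among class I genes, B2m stood at 0.33 ± 0.18 and H2-D1 at 0.13 ± 0.13, and H2-K1 at -0.05 ± 0.19, or 0.02 in limma on log2(FPKM + 0.5). The median over class II genes was 0.49 and over class I genes 0.13, beside -0.03 over all loci.

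On normal diet at 22 weeks replicate 4 was the highest library for each of the 10 genes. For H2-D1 replicate 3 was close to it, at 833 against 845 CPM. The summed B cell markers of replicate 4 stood at 314 CPM, with 13, 15.7 and 67.9 in replicates 1 to 3 and 22.8 to 67.8 in the Western-diet libraries. Pax5, a transcription factor that defines B cells, read 51.3 CPM there and at most 9.06 in the other 3. The summed markers of lymph node stroma and vessels were 74.7 CPM, against 23.7 to 29.8 in the rest of that group. In normal-diet replicate 2 of 6 weeks they were 55.3 CPM, against 12.7 to 16. The part of these cells in the class II values was not tested. In whole tissue, more cells of a type and more RNA per cell cannot be told apart.

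The diet comparisons were therefore repeated without those 2 libraries, a choice made after seeing the data. Both are normal-diet libraries and each was the highest of its group for all 10 members. Leaving them out therefore lowers the normal-diet side for these genes and favours non-overlap of the diets. The share of all loci beside each count is not limited to genes with that pattern, so the 2 are not alike. Without the 2 libraries all 10 values at 22 weeks were positive. Cd74 passed, at 1.34 ± 0.29 (log2 fold change ± SE, adjusted p = 0.0462, edgeR's quasi-likelihood test), beside 0.996% of all loci passing. H2-Eb1 at 1.03 ± 0.23, H2-Aa at 1.12 ± 0.26 and H2-Ab1 at 0.95 ± 0.24 had adjusted p-values of 0.0526, 0.0566 and 0.0737 and did not pass. The 4 Western-diet libraries lay above the 3 remaining normal-diet libraries for H2-Aa, H2-Ab1, H2-Eb1, Cd74 and B2m, 5 of 10 members, where 8.13% of all loci did so. At 6 weeks 3 members did so, H2-Ab1, Cd74 and H2-D1, against 4.82% of all loci, and none passed the test. Ciita and H2-DMb1, which had negative values at 22 weeks with all libraries, came to 0.49 ± 0.31 and 0.40 ± 0.34. Without normal-diet replicate 4 of 22 weeks alone, 0 members passed, while 429 of the 24091 loci did.

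**Figure D2:**
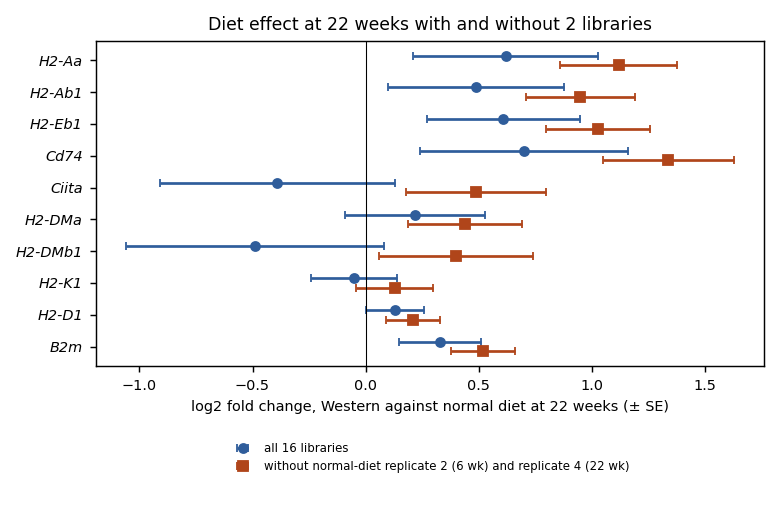
Fitted log2 fold change of Western against normal diet at 22 weeks (horizontal axis, bars of 1 SE) for each gene, from all 16 libraries and without the 2 libraries highest in B cell markers. The values of Cd74 (0.70 and 1.34) and H2-Aa (0.62 and 1.12) move up, and those of Ciita and H2-DMb1 change sign.

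Macrophage and dendritic cell markers were also measured beside the class II genes. The 12 macrophage markers summed to 1058 to 1748 CPM on normal diet and 1912 to 2405 on Western diet at 22 weeks, with no overlap. The locus of Cd68, 1 of these markers, carries 8 genes, among them Senp3 and Eif4a1, so the sums hold those genes too. Lyz2, the largest part of that sum, read 252 to 685 and 844 to 1150 CPM in turn. The diets overlapped for Mertk, at 182 to 231 and 149 to 219 CPM, and for Mrc1, at 48.9 to 111 and 65.2 to 77.8. The separation of the sums thus did not hold for every marker. None of the 12 passed the diet test at that time, and their median log2 fold change was 0.40. The 10 dendritic cell markers summed to 89.1 to 168 and 149 to 159 CPM. At 22 weeks Western-diet replicate 1 was the highest of its group for every class II gene but H2-DMb1, and had the highest thymocyte sum of its group, 194 CPM against 43.2 to 107. Its macrophage sum, 2405 CPM against 1912 to 2365, and its T cell sum, 149 against 27.3 to 73.9, were also the highest there. Its B cell and dendritic cell sums were not. At 6 weeks Western-diet replicate 1 had a thymocyte sum of 513 CPM and a thymic epithelium sum of 133 CPM, against 45.3 to 125 and 9.45 to 12.7 in the other 3. It was the highest of its group for all 7 class II genes. Leaving out both of these libraries left 0 members passing in either diet comparison, where 0.129% of all loci passed at 6 weeks and 0.0498% at 22 weeks. What these cells add to the class II values was not tested.

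**Figure D3:**
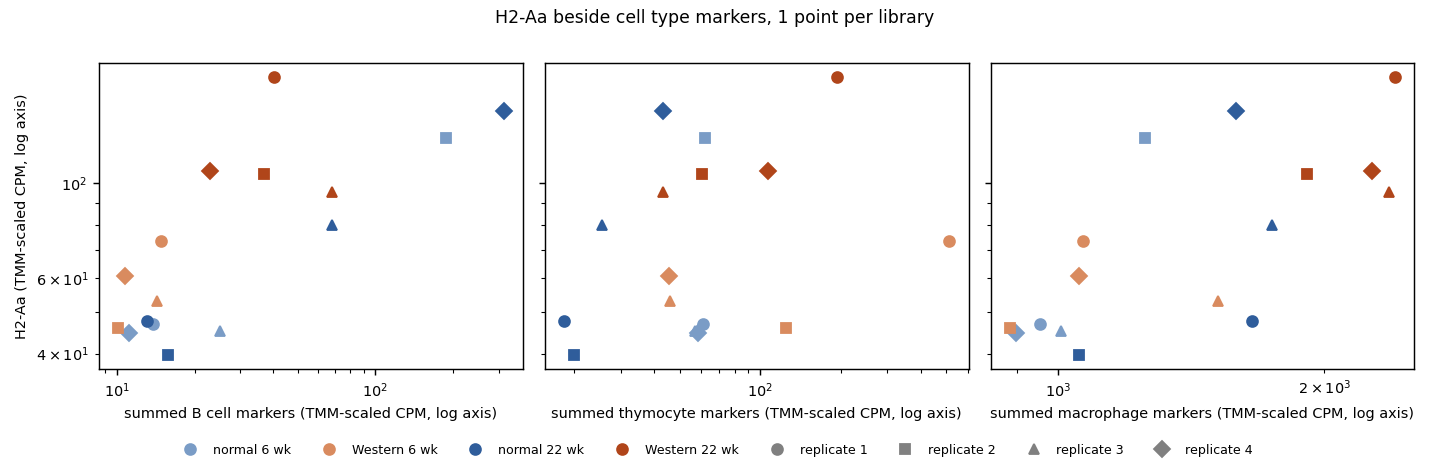
H2-Aa level (vertical log axis, TMM-scaled CPM) against the summed level of B cell, thymocyte and macrophage markers (horizontal log axes, TMM-scaled CPM), 1 point per library. The normal-diet libraries with 188 and 314 CPM of B cell markers are at 128 and 148 CPM of H2-Aa, and Western-diet replicate 1 of 22 weeks, with 40.4 CPM of B cell markers, is at 177.

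The diet effect at 22 weeks was compared directly with that at 6 weeks. No member passed, 0 had an unadjusted p under 0.05, and 0.183% of all loci passed. DESeq2 called 493 loci and no member. The differences were 0.80 ± 0.58 for H2-Aa, 0.76 ± 0.65 for Cd74, 0.66 ± 0.48 for H2-Eb1 and 0.61 ± 0.55 for H2-Ab1 (log2 scale ± SE). H2-D1 stood at 0.06 ± 0.18 and H2-K1 at -0.34 ± 0.27. The lowest adjusted p was 0.607, for B2m, in edgeR's quasi-likelihood test. A diet effect on these genes that differed between the times was thus not detectable in these libraries.

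On Western diet, 22 weeks were set against 6 weeks. H2-Aa, H2-Ab1, H2-Eb1, H2-DMa, H2-K1 and H2-D1 rose and B2m fell, 7 of 10 members. In this comparison 43.8% of all loci passed, 21.9% higher and 21.9% lower, beside 6 members higher and 1 lower. The 9 members other than B2m lay higher in every library of 22 weeks than in any of 6 weeks, while 40.5% of all loci did not overlap, 20.1% higher and 20.4% lower. H2-Eb1 rose by 1.49 ± 0.35 (log2 fold change ± SE, adjusted p = 0.00275, edgeR's quasi-likelihood test), H2-Ab1 by 1.33 ± 0.40 and H2-DMa by 1.17 ± 0.31. H2-Aa passed narrowly, at 1.06 ± 0.41 with an adjusted p of 0.0492. It lost the call in 11 of the 16 fits that left out a single library and in 8 of the 12 other alternatives. Ciita at 1.21 ± 0.53, H2-DMb1 at 1.11 ± 0.58 and Cd74 at 0.98 ± 0.46 did not pass, with adjusted p-values of 0.0763 to 0.134. The median over class II genes was 1.17, beside -0.02 over all loci.

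Without the 2 libraries highest in B cell markers, which are not among the Western-diet libraries, these fold changes were the same and their SEs smaller. All 10 members then passed on Western diet, beside 43.7% of all loci. The 4 groups share 1 estimate of the spread in the fit. The 2 libraries were left out after seeing the data, and each was the highest of its group for all 10 members. Without them that estimate is smaller for these genes, so the higher count adds no separate support for a change. The macrophage markers stood at 883 to 1516 CPM at 6 weeks and 1912 to 2405 at 22 weeks on this diet, and 8 of 12 rose and 1 fell. The sum of 1516 was that of replicate 3, where Adgre1 read 212 CPM, against 17.5 to 20.8 in the rest of its group. Of 6 dendritic cell markers tested, 4 rose. Of 5 B cell markers tested, 2 rose. Of 6 adipocyte markers 5 rose, and of 6 smooth muscle markers 2 fell. Their part in the class II values was not tested.

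On normal diet, 22 weeks were likewise set against 6 weeks. Ciita, H2-DMa, H2-K1 and H2-D1 rose and B2m fell, 5 of 10 members, where 46.7% of all loci passed (22.6% with lower and 24% with higher values). Only the 3 class I genes of the 10 separated the times without overlap on this diet, against 44% of all loci. Ciita passed at 1.38 ± 0.53 with an adjusted p of 0.0439 in edgeR's quasi-likelihood test. Without normal-diet replicate 4 of 22 weeks it was 0.50 with an adjusted p of 0.35. The call was lost in 11 of the 16 fits without a single library. It was also lost in 9 of the 12 other alternatives, among them other scalings and summed loci. H2-DMa, at 0.93 ± 0.31, lost the call in 5 of the fits without a single library, in which its adjusted p reached 0.0839. It lost the call in 3 of the 12 other alternatives. H2-Eb1, at 0.83 ± 0.34, and H2-Ab1, at 0.72 ± 0.39, did not pass, with adjusted p-values of 0.0594 and 0.144. Without normal-diet replicate 2 of 6 weeks 8 members passed, beside 10422 of the 24091 loci. Without normal-diet replicate 4 of 22 weeks 3 did, beside 10465 of the loci. H2-Aa and Cd74 had values of 0.25 ± 0.41 and 0.22 ± 0.46, and Cd74 was at -0.07 in limma on log2(FPKM + 0.5). Of 12 macrophage markers 7 rose and 1 fell with time on this diet, with a median log2 fold change of 1.15. Of 6 dendritic cell markers 3 rose, with a median of 1.36, of 5 B cell markers 0 passed, and of 6 smooth muscle markers 2 fell. What these cells add to the values was not tested.

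**Figure D4:**
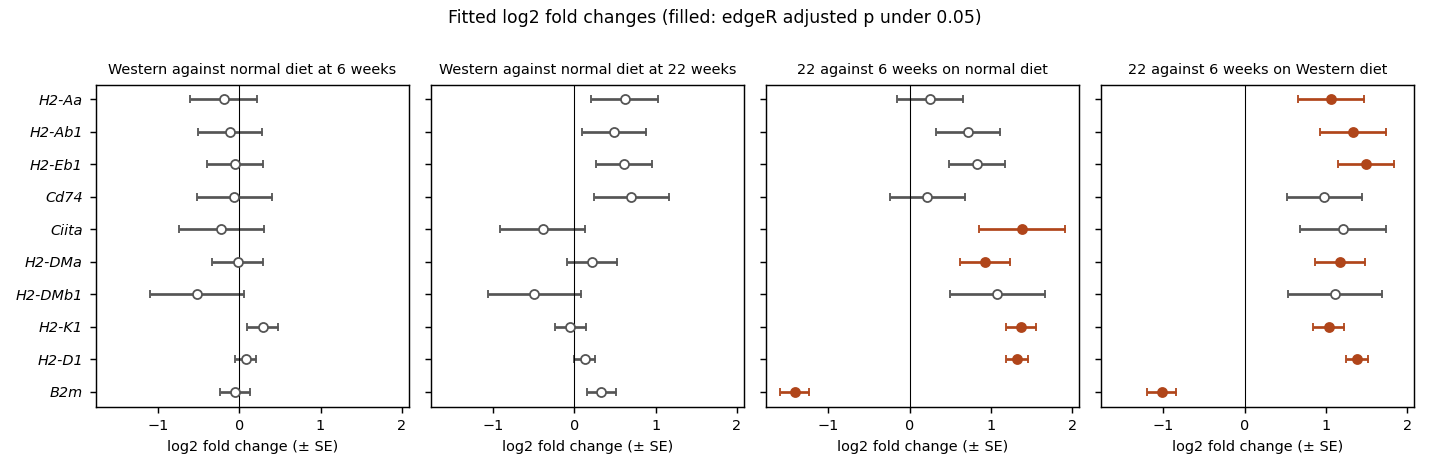
Fitted log2 fold change of each gene in the 4 comparisons (horizontal axes, bars of 1 SE), with filled points for an adjusted p under 0.05. No point is filled in the diet comparisons, and B2m lies at -1.41 and -1.02 in the time comparisons while H2-K1 and H2-D1 lie between 1.03 and 1.38.

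The class I genes changed with time in opposite directions. H2-D1 rose by 1.32 ± 0.13 on normal diet (adjusted p = 1.65e-06) and by 1.38 ± 0.13 on Western diet (adjusted p = 1.47e-06), both log2 fold changes ± SE from edgeR's quasi-likelihood test. H2-K1 rose by 1.37 ± 0.19 and 1.03 ± 0.19. B2m fell by 1.41 ± 0.18 on normal diet (adjusted p = 2.23e-05) and by 1.02 ± 0.18 on Western diet (adjusted p = 3.72e-04). These 6 results kept their direction and stayed past the threshold in all 28 alternative fits, with a highest adjusted p of 0.00407. In limma on log2(FPKM + 0.5), where the median of all loci was -0.16 and -0.21, B2m differed from that median by -1.47 and -1.06, and H2-D1 by 1.26 and 1.34.

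The heavy chains per B2m were set out on deposited FPKM, as the ratio of H2-K1 plus H2-D1 to B2m. The ratio was 0.483, 0.449, 0.53 and 0.503 on normal diet and 0.56, 0.568, 0.566 and 0.523 on Western diet at 6 weeks. After 22 weeks the ratio was 3.57, 3.3, 3.47 and 2.87 on normal diet and 2.38, 2.66, 3.23 and 2.82 on Western diet. Heavy-chain transcripts thus went from below to above the level of B2m transcripts in all 8 libraries of each time. The mean was 3.3 ± 0.311 on normal diet and 2.78 ± 0.355 on Western diet at 22 weeks (SD, n = 4).

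**Figure D5:**
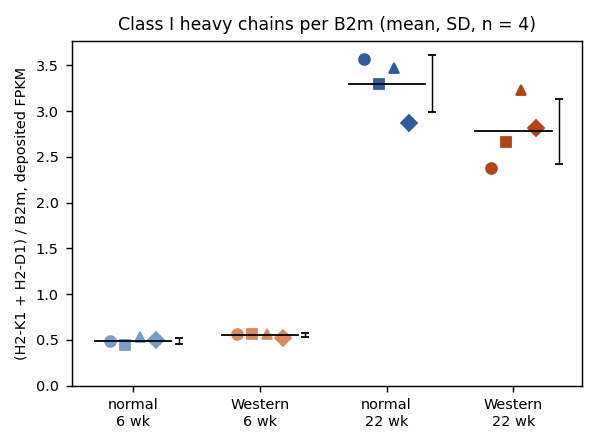
Ratio of H2-K1 plus H2-D1 to B2m in deposited FPKM (vertical axis, starting at 0) in each library of the 4 groups, with a bar at the mean and a whisker of 1 SD (n = 4). The 8 libraries of 6 weeks lie between 0.449 and 0.568 and the 8 of 22 weeks between 2.38 and 3.57.

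Ratios between class II genes shifted less between the times than that of heavy chains to B2m. H2-Aa over H2-Ab1 was 1.21 ± 0.0333 and 1.16 ± 0.0534 in FPKM at 6 weeks and 0.859 ± 0.0564 and 0.958 ± 0.123 at 22 weeks, on normal and Western diet in turn (mean ± SD, n = 4). The libraries of the 2 times did not overlap on either diet. H2-Eb1 over H2-Ab1 had means of 1.21 to 1.35 in the 4 groups. Cd74 over the sum of the 3 chains was 1.41 ± 0.118 and 1.51 ± 0.249 at 6 weeks and 1.04 ± 0.153 and 1.2 ± 0.0715 at 22 weeks. H2-D1 over H2-K1 had means of 2.44 to 3.01 and overlapped between all groups.

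Other genes of the same pathways were counted from lists. In both diet comparisons and in the difference of the diet effects 0 of the 48 loci tested from 6 lists passed edgeR's quasi-likelihood test, and 8, 11 and 4 had an unadjusted p under 0.05. Of all 24091 loci, 2567, 3437 and 2880 had one. At 22 weeks Ctss, the protease that cuts the invariant chain, read 53.5 ± 20.9 CPM on normal and 138 ± 30.8 on Western diet (mean ± SD, n = 4, adjusted p = 0.138). Rfx5, a subunit of the RFX complex that binds the X box, read 21 ± 2.6 and 11.5 ± 3.47 CPM (adjusted p = 0.13, edgeR). Cd274, the checkpoint ligand PD-L1, read 23.3 ± 3.5 and 42.8 ± 14.2 CPM at 6 weeks and 17.4 ± 5.93 and 29.8 ± 7.73 at 22 weeks, with adjusted p-values of 0.209 and 0.181 in edgeR. The other genes with the lowest p of their list at 6 weeks were Socs1 at 1.19 ± 0.37, Psmb8 at 0.54 ± 0.25, Rfxap at 0.47 ± 0.18, Mr1 at -0.34 ± 0.11 and Lgmn at 0.28 ± 0.17 (log2 fold change ± SE). At 22 weeks they were Cd1d1, which presents lipids, at 0.74 ± 0.26, the chaperone Calr at 0.36 ± 0.10 and the interferon gamma receptor chain Ifngr1 at 0.35 ± 0.18. For the difference of the diet effects they were Cd1d1 at 1.29 ± 0.37, Ctss at 0.79 ± 0.57, Calr at 0.37 ± 0.14, Cd83 at -0.36 ± 0.80 and Rfxap at -0.54 ± 0.26. None of these passed.

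In the time comparisons the counts of these lists stand beside 24% of all loci higher and 22.6% lower on normal diet, and 21.9% each on Western diet. The list of class I peptide supply and loading held 14 genes, all tested. On normal diet 8 of them rose with time and 3 fell, with a median log2 fold change of 0.92, and on Western diet 8 rose and 2 fell, with a median of 0.79. Psmb10, a subunit of the immunoproteasome that cuts peptides for class I, went from 6.65 ± 1.03 to 18.3 ± 2.05 CPM on normal diet and from 7.67 ± 0.724 to 20.3 ± 1.79 on Western diet. Tapbp (tapasin, at a locus shared with Zbtb22), which bridges class I and the peptide transporter, rose by 1.22 ± 0.11 and 1.28 ± 0.11 on the log2 scale. Tap2, a chain of that transporter, rose from 29.4 ± 5.29 to 71.2 ± 11.6 CPM on normal diet and from 34.1 ± 6.11 to 68.4 ± 12.2 on Western diet. Erap1, which trims peptides in the endoplasmic reticulum, fell by 0.98 ± 0.11 and 0.79 ± 0.11.

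Nlrc5, a coactivator of class I genes that was singled out after its values were seen, rose from 31.1 ± 18.2 to 74.3 ± 33.5 CPM on normal diet (log2 fold change 1.26 ± 0.37) and from 29.1 ± 9.74 to 60.1 ± 14.9 on Western diet (1.05 ± 0.37). On normal diet its highest library was replicate 2 at 6 weeks, with 58.1 CPM, and replicate 4 at 22 weeks, with 122 CPM. Canx, Calr and Erap1, which work in the endoplasmic reticulum, were the 3 genes of the list that fell on normal diet.

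Among 18 other class I and class I-like heavy chain genes, 9 loci were tested, and several genes share a locus. On normal diet 4 rose and 2 fell with time, and on Western diet 5 rose and 1 fell. H2-T23, which codes for the non-classical molecule Qa-1, rose by 1.65 ± 0.20 and 1.57 ± 0.20 (log2 fold change ± SE). H2-M3, which presents formylated peptides, rose by 1.18 ± 0.24 and 1.32 ± 0.24. Mr1, which presents vitamin B metabolites, fell by 1.20 ± 0.11 and 0.90 ± 0.11. Fcgrt, the neonatal Fc receptor, which also pairs with B2m, rose by 0.61 ± 0.18 and 0.87 ± 0.18. Hfe, an iron regulator that pairs with B2m, rose by 0.68 ± 0.14 on Western diet, and its value on normal diet was 0.19 ± 0.14. H2-L was not analysed here.

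The list of class II peptide loading and turnover held 11 genes, of which 6 loci were tested and 1 more is shared with H2-DMb1. With time 3 rose on normal diet and 4 on Western diet, and 0 fell. Ifi30 (at a locus shared with Pik3r2), a thiol reductase of the endosome, rose by 0.97 ± 0.11 and 0.91 ± 0.11 on the log2 scale. Lgmn, an endosomal protease, rose by 0.62 ± 0.17 and 0.89 ± 0.17. Ctss rose by 1.49 ± 0.41 on Western diet and stood at 0.70 ± 0.40 on normal diet. March8, a ubiquitin ligase of membrane proteins, rose by 0.38 ± 0.08 and 0.49 ± 0.08. H2-Ob, a subunit of the H2-O inhibitor of H2-DM that B cells express, was below the expression filter. Its CPM was 15.2 in normal-diet replicate 2 at 6 weeks and 40 in normal-diet replicate 4 at 22 weeks, against 0.405 to 6.97 in the other 14 libraries. H2-Ea-ps was not analysed here.

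All 7 factors that bind class II promoters were tested. The RFX subunit Rfxap rose by 0.70 ± 0.19 on normal diet and stood at 0.16 ± 0.18 on Western diet. Of the NF-Y subunits, which bind the Y box, Nfya rose by 0.29 ± 0.11 on normal diet and Nfyc (locus shared with microRNA genes) fell by 0.70 ± 0.14 on normal and 0.59 ± 0.13 on Western diet. Nothing else in this list passed, and its median log2 fold change was 0.00 on normal and -0.31 on Western diet. Of the 10 genes of interferon gamma signalling 9 were tested, and the median was 0.05 and 0.17. Socs1, an inhibitor that interferon induces, rose from 1.05 ± 0.39 to 8.52 ± 2.35 CPM on normal diet and from 2.39 ± 1.36 to 10.7 ± 2.5 on Western diet. Irf8 rose by 2.12 ± 0.75 on Western diet. The kinase Jak2 fell by 0.30 ± 0.09 and 0.34 ± 0.09, and nothing else in this list passed. Of 3 costimulation genes tested, 0 passed. Cd83, a marker of mature dendritic and B cells, had 1.14 ± 0.57 on normal diet and the adjusted p was 0.116 in edgeR's quasi-likelihood test. Cd274 stood at -0.52 ± 0.26 on Western diet, also with an adjusted p of 0.116.

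The genes whose pattern was most like that of the members were found by Pearson's r of log2 CPM over the 16 libraries, among 12431 candidates and without a test. The 16 points share the time and diet groups and the libraries with high B cell markers. For the mean of the 7 class II genes they were Wdfy4 (r = 0.963), a gene needed for cross-presentation by dendritic cells, and Irf8 (0.961), a transcription factor of dendritic cells, macrophages and B cells. Zc3h12d (0.943), Sting1 (0.930) and Il27ra (0.928) followed. Over the 14 libraries without the 2 highest in B cell markers these r were 0.91 to 0.95. Irf8 had 42.4 CPM in normal-diet replicate 2 against 3.86 to 5.1 in the rest of that group at 6 weeks. At 22 weeks it had 91.3 CPM in normal-diet replicate 4, against 12.8 to 35.7. For the mean of the 3 class I genes the closest were Zc3h12d (0.923), Dusp2 (0.919), Ptk2b (0.915), Irf8 (0.911) and S1pr4 (0.901). That mean combines B2m with heavy chains that moved the other way with time.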

How the data were processed

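RNA sequencing of mouse aorta was analysed from 1 deposited table of 70603 loci for 16 libraries, which per the file headers gives an estimated count and an FPKM for each. The submitters' processing notes list cutadapt 1.9, FastQC and the build GRCm38. Aligner, counter, annotation and strand setting were not given in the sources used here. Deposited estimated counts were whole numbers that clustered near multiples of 4 (35277 values were 4, 14716 were 3 and 9394 were 5), so they may not be numbers of fragments. The deposited FPKM was 1e-04 where the count was 0. The label of Western-diet replicate 4 at 6 weeks points to the column of replicate 3, so columns were matched by sample title.

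Loci naming no gene (3714, with 0.606% of the counts) were not used. The expression filter was FPKM 1 or above in 4 or more libraries, which kept 24091 loci, 22653 of them naming 1 gene. The test was the quasi-likelihood test of edgeR 4.0.16 in R 4.3.3 on the deposited counts, with TMM scaling, 4 group means, no block and two-sided p-values with Benjamini-Hochberg adjustment over all loci. The threshold was an adjusted p of 0.05. The fits were tested on simulated data. Alternatives were DESeq2 1.42.0, limma 3.58.1 on log2(FPKM + 0.1, 0.5 or 1), other scalings, no filter, summed loci, a replicate block and leaving out libraries. Any 2 replicates of a group differed in at least 98.8% of tested loci.

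The members and lists were chosen with earlier results of these data known. The text names every member. Of each pathway list it names genes that passed, at most 4 per comparison by adjusted p or, where none did, the gene with the lowest p; 1 such gene is not reported here. For list genes the locus with the highest FPKM among those with an annotated transcript was used. The 5 genes most like the members were taken by Pearson's r.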

Additional observations from a re-analysis of the deposited data

Results flagged for a closer look

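Each of the 10 genes was examined in each of the 4 groups, 40 combinations in all, for a library far from the other 3 (Dixon's 95% criterion). Chance flags about 1 in 20 groups, and 9 of the 40 were flagged, all for a high library. The libraries are shared between genes, so the 9 are not independent. In normal-diet replicate 2 at 6 weeks, H2-Aa read 128 CPM with 47 next in its group, H2-Ab1 109 with 40.1 next, Cd74 243 with 88.9 next and Ciita 38 with 14.3 next. In the same library H2-DMb1 read 24.9 CPM with 7.77 next and H2-D1 351 with 277 next. Its B cell markers summed to 188 CPM, against 11.1 to 25 in the other 3. In Western-diet replicate 1 at 22 weeks, H2-Aa read 177 CPM with 107 next, H2-Eb1 118 with 80.8 next and Cd74 351 with 200 next. Its thymocyte markers summed to 194 CPM, against 43.2 to 107. Its macrophage sum, 2405 CPM against 1912 to 2365, and its T cell sum, 149 against 27.3 to 73.9, were also the highest of its group. Its B cell and dendritic cell sums were not. The part of other cell types in these values was not tested.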

How the results depend on the processing

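Under each of 28 alternatives the time changes of H2-K1, H2-D1 and B2m kept their direction and stayed past the threshold. Members passing from 6 to 22 weeks on normal diet numbered 5 in the reported fit and 3 under each of the 3 limma fits on FPKM. Of the 24091 loci, 11247 passed in the reported fit and 12166, 12012 and 12162 under limma. Under these fits (FPKM + 0.5, 0.1 and 1) the class I median was 1.10 each on normal diet and 0.79, 0.80 and 0.79 on Western diet, and it was 0.82 there with library size alone. The median of all loci was then -0.16, -0.20 and -0.13 on normal diet and -0.21, -0.25 and -0.17 on Western diet under limma, and -0.23 on Western diet with library size alone. It was -0.19 with library size alone for the difference of the diet effects, and 0.11 on normal diet with no filter. Without the 2 libraries highest in B cell markers, and without the 4 highest in B cell or thymocyte markers (both chosen after seeing the data), 1 member passed for diet at 22 weeks. Of all loci, 0.996% and 1.32% passed in these fits.

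Signs turned as follows, none for a value past the threshold, and the cause was not tested. For diet at 6 weeks under limma (FPKM + 0.5, 0.1, 1), H2-Aa came to 0.01, 0.02 and 0.01, H2-Ab1 to 0.08, 0.08 and 0.07, H2-Eb1 to 0.10, 0.10 and 0.09, Cd74 to 0.14, 0.15 and 0.14, H2-DMa to 0.09, 0.13 and 0.07 and B2m to 0.03 each. Under these fits H2-K1 came to 0.02 each for diet at 22 weeks, Cd74 to -0.07, -0.07 and -0.06 for time on normal diet, and Ciita to 0.01 and 0.05 for the difference of diet effects (FPKM + 0.5 and 0.1). With library size alone, H2-Eb1, Cd74, H2-DMa and B2m came to 0.03, 0.02, 0.06 and 0.03 for diet at 6 weeks, and H2-DMb1 and H2-D1 to -0.14 and -0.09 for the difference of diet effects. Without the 2 libraries, and then without the 4, diet at 6 weeks gave 0.35 and 0.23 for H2-Aa, 0.42 and 0.27 for H2-Ab1, 0.33 and 0.26 for H2-Eb1, 0.51 and 0.33 for Cd74, 0.37 and 0.14 for Ciita, 0.37 and 0.25 for H2-DMa, 0.24 and 0.03 for H2-DMb1 and 0.10 each for B2m. Diet at 22 weeks gave 0.49 and 0.37 for Ciita, 0.40 each for H2-DMb1 and 0.13 and 0.14 for H2-K1, and the difference of diet effects 0.12 and 0.23 for Ciita.

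Leaving out each library in turn, members passing ranged from 3 to 8 for time on normal diet and from 6 to 9 on Western diet. Of the 24091 loci, 9982 to 11459 passed in these fits on normal diet and 9538 to 10735 on Western diet. Values that changed sign in some of these fits ranged, for diet at 6 weeks, from -0.33 to 0.35 for H2-Aa, -0.27 to 0.42 for H2-Ab1, -0.22 to 0.33 for H2-Eb1, -0.24 to 0.51 for Cd74, -0.45 to 0.37 for Ciita, -0.18 to 0.37 for H2-DMa, -0.74 to 0.24 for H2-DMb1 and -0.13 to 0.10 for B2m. For diet at 22 weeks they ranged from -0.61 to 0.49 for Ciita, -0.74 to 0.40 for H2-DMb1 and -0.16 to 0.13 for H2-K1. For the difference of diet effects they ranged from -0.75 to 0.70 for Ciita, -0.15 to 0.46 for H2-DMa, -0.73 to 0.92 for H2-DMb1 and -0.04 to 0.15 for H2-D1, and for time on normal diet from -0.25 to 0.79 for H2-Aa and -0.42 to 0.79 for Cd74.

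Loci called for diet numbered 68 at 6 weeks and 55 at 22 weeks in edgeR, 458 and 829 in DESeq2, and 90 and 146 in limma at FPKM + 0.5. Libraries with the same replicate number correlated at -0.25 to 0.19 in their deviations from group means, and 3 of 16 correlated best with their own number. No pairing by number was thus seen, but this cannot show that the libraries were unpaired. With a replicate block, members passing numbered 0, 0 and 0 for the diet comparisons and their difference and 4 and 6 for time, and loci called 28, 26, 0, 10782 and 10083. With 4 libraries a group, and SEs of 0.31 to 0.58 for class II genes against 0.13 to 0.19 for class I, small diet effects on class II genes were not detectable.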
